A study of Oryza sativa and Oryza rufipogon with 8 samples.

Results

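The level that 102 ortholog gene pairs reached in roots after 5 days without Fe was compared between *Oryza rufipogon*, a wild rice, and *Oryza sativa*, the cultivated rice. Each pair holds 1 *O. sativa* and 1 *O. rufipogon* gene. The study had listed the pairs because both genes responded to Fe deficiency in the same direction, 57 as up and 45 as down, and all 102 were found in the files, out of 35679 *O. sativa* and 37071 *O. rufipogon* genes. The list was therefore made from the contrast between −Fe and control libraries within each species, to which the −Fe libraries compared here also belonged, and those responses are given below as description only. Hydroponic plants of the *O. sativa* cultivar Nipponbare and of 1 *O. rufipogon* accession from a Brazilian germplasm collection gave the roots. The plants received 100 µM Fe-EDTA (control condition, CC) or had no Fe added (−Fe). RNA of 3 biological replicates was pooled in each RNAseq library. The 2 −Fe libraries of each species are compared here, beside 2 CC libraries. As each species is represented by 1 cultivar or accession, species and accession cannot be told apart.

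Grasses acquire Fe mainly by secreting phytosiderophores, organic chelators made from methionine through nicotianamine, and by taking up the Fe(III) complex through YSL transporters. Rice roots also take up Fe(II) directly through IRT transporters. These steps are switched on under Fe deficiency by basic helix-loop-helix transcription factors such as IRO2 and are restrained by the HRZ ubiquitin ligases. Among the pairs listed as down are genes of the phosphate starvation response, in which SPX proteins sense phosphate status, purple acid phosphatases release phosphate from organic compounds, and galactolipids replace phospholipids in membranes.

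Under −Fe, *O. sativa* had 24123205 and 25312301 estimated counts per library, against 17145733 and 18857150 for *O. rufipogon*. CPM are the counts of a gene scaled to a common library total, and 3 counts corresponded to 0.119 to 0.175 CPM. Such a limit covers counting error only. In the *O. sativa* −Fe libraries the root genes *Lsi1*, *Lsi2* and *RCc3* were at 316 to 1024 TPM, the same per unit of transcript length, and 5 genes of photosynthesis, markers of green tissue, at 2.54 to 171 TPM. All 5 were higher in the first *O. sativa* −Fe library than in the second, and their part in the differences below was not tested. Their *O. rufipogon* partners are not among the pairs. Differences between the 4 −Fe libraries were tested in edgeR (quasi-likelihood), and a pair was called at an FDR of 0.05 over the 102 pairs (Benjamini-Hochberg). Every log2 difference is *O. rufipogon* over *O. sativa*, with its standard error (SE) and n = 2 libraries per species. An exact permutation test of a single pair with 2 libraries against 2 cannot go below p = 0.333, so the calls rest on the spread that edgeR estimated over all pairs, a coefficient of variation of 9.15% between pooled libraries. Pooling evens out the spread between single plants.

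Reads were assigned by the authors to the transcripts of each species, and the annotated lengths of partners differ. The effective length of the *O. rufipogon* gene was between 0.153 and 3.26 times that of its partner, with a median of 0.999, and it differed by more than 1.5-fold in 38 pairs. Each pair was therefore compared on the CPM scale and again per effective length (TPM scale), and the pairs called the same way on both scales are given first. Estimated counts that are not whole show that reads were divided with another gene. This was so in 46 of the *O. sativa* and 41 of the *O. rufipogon* genes, and at least 1 partner was concerned in 56 pairs, whose values are uncertain to that extent.

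Most pairs differed between the species after 5 days without Fe. The direction went with the listed response, which these −Fe libraries helped to define, so this is description only. The split was also there under CC, with a median log2 ratio of mean CPM of −1.19 for pairs listed as up and 0.85 for those listed as down. Of the 102 pairs, 72 (70.6%) were called in the same direction on both scales, 42 (41.2%) as lower and 30 (29.4%) as higher in *O. rufipogon*. Of the 57 pairs listed as up, 39 were lower and 3 higher, and of the 45 pairs listed as down, 27 were higher and 3 lower. The median log2 difference was −1.02 in CPM and −0.83 per length for the pairs listed as up, 0.91 and 0.82 for those listed as down, and −0.34 and −0.28 over all pairs. Among the 14 pairs listed as down whose partners had like lengths it was 0.43 and 0.49. Counting CPM alone, 88 pairs (86.3%) were called, 37 (36.3%) as higher and 51 (50.0%) as lower. Per length 85 pairs (83.3%) were called, 37 (36.3%) as higher and 48 (47.1%) as lower. The libraries of the species did not overlap in 38 pairs (37.3%) that were higher and 56 (54.9%) that were lower in CPM, and in 41 (40.2%) and 56 (54.9%) per length. Relative to the median pair, the CPM split became 43 higher and 39 lower. Without the second *O. sativa* −Fe library, 29 pairs were lower per length and 27 on both scales. In these root samples, fewer cells that express a gene and less RNA per cell cannot be told apart.

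**Figure D1:**
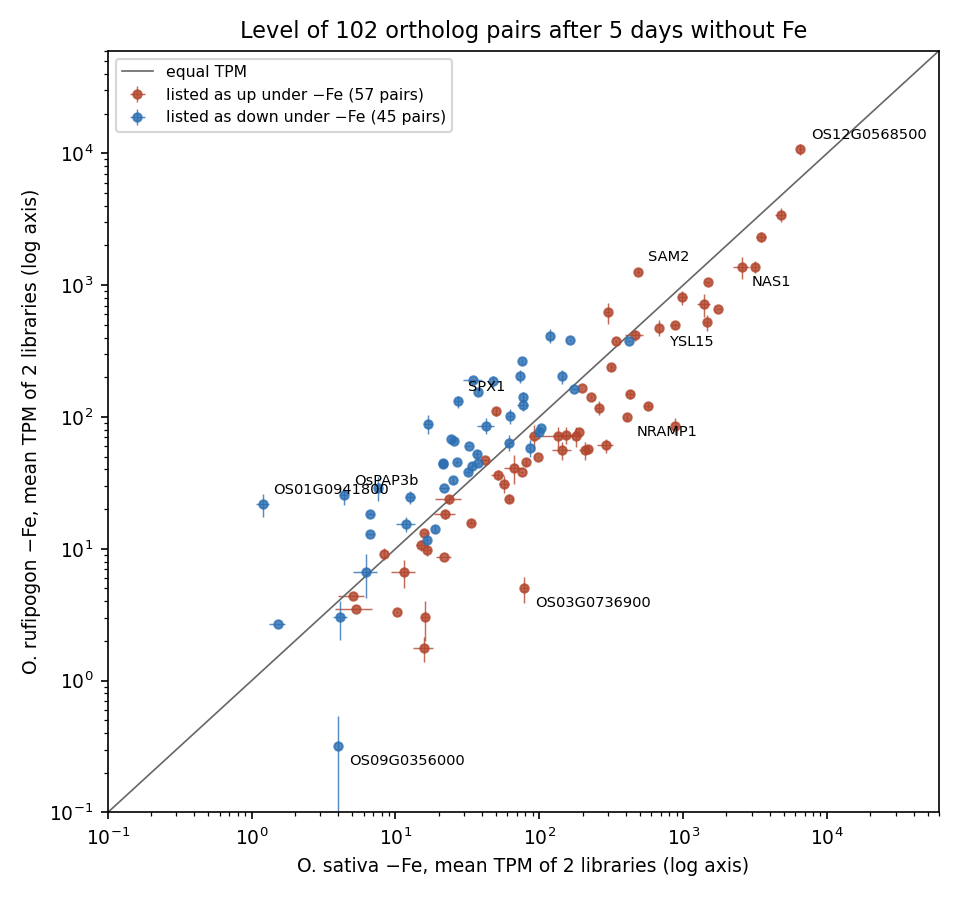
Mean TPM of each ortholog pair under −Fe in *O. sativa* (horizontal log axis) and *O. rufipogon* (vertical log axis), with bars for the SD of 2 libraries per species and colours for the listed response. Most of the 57 pairs listed as up lie below the line of equal TPM and most of the 45 listed as down lie above it, and *SAM2* is among the few pairs listed as up that lie above it.

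Together the 57 pairs listed as up held 3.47% of all estimated counts in *O. sativa* −Fe and 1.86% in *O. rufipogon* −Fe. For the 45 pairs listed as down the shares were 0.233% and 0.468%. Per length, the order of the pairs was alike in the species, with a Spearman rho of 0.851 between mean TPM values across the 102 pairs, which share libraries and are not independent. Of the 10 pairs with the highest TPM in each species, 9 were the same. The metallothionein-like OS12G0568500 ranked first in both, at a mean of 6533 TPM in *O. sativa* and 10694 TPM in *O. rufipogon*, followed by *MT4A*, another metallothionein. *NAS1* was the fifth in both. *ARD2* was the sixth in *O. sativa* and the tenth in *O. rufipogon*, where *SAM2* took the sixth place.

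The enzymes of phytosiderophore synthesis were not all placed alike. Of the 4 pairs, all listed as up, 2 were lower and 1 higher in *O. rufipogon* on both scales. Of all 57 pairs listed as up, 39 were lower and 3 higher. *NAS1*, nicotianamine synthase, stood at 2617 and 3180 CPM in the *O. sativa* −Fe libraries and at 1053 and 789 CPM in those of *O. rufipogon*. The species did not overlap, and the *O. rufipogon* level was 3.15-fold lower in CPM (log2 difference −1.65 ± 0.18 (SE), adjusted p = 1.6e-06) and 1.86-fold lower per length (−0.89 ± 0.16, adjusted p = 0.00019). The call per length was lost without the second *O. sativa* −Fe library (−0.76, adjusted p = 0.076). *NAAT1*, the aminotransferase that acts on nicotianamine, was at 1741 and 1869 CPM against 1220 and 1158 CPM. It was 1.52-fold lower in *O. rufipogon* in CPM (adjusted p = 0.0012) and 1.41-fold lower per length (adjusted p = 0.0027). The CPM call was lost relative to the median pair (log2 difference −0.26, adjusted p = 0.097) and without the second *O. sativa* −Fe library (−0.55). The call per length was lost relative to the median pair (−0.21, adjusted p = 0.15). It was also lost without the first (−0.53) or the second (−0.45) *O. sativa* −Fe library.

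*DMAS*, which completes deoxymugineic acid, was at 431 and 538 CPM in *O. sativa* and 332 and 283 CPM in *O. rufipogon*. It was lower in CPM (−0.66 ± 0.12, adjusted p = 0.00025) but not called per length (−0.15 ± 0.12, adjusted p = 0.24), as its *O. rufipogon* gene has a shorter effective length (0.76 times). *SAM2*, which makes the S-adenosylmethionine that feeds the pathway, went the other way, with 681 and 724 CPM in *O. sativa* against 1175 and 1091 CPM in *O. rufipogon*. Its level in *O. rufipogon* was 1.61-fold higher in CPM (0.69 ± 0.13, adjusted p = 0.0002) and 2.61-fold higher per length (1.39 ± 0.12, adjusted p = 1.1e-07). Of these 4 pairs, 3 share reads with another gene in *O. sativa*, *NAAT1* being the exception.

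The methionine salvage cycle returns to methionine the sulphur compound that nicotianamine synthesis leaves over. Of its 5 pairs, all listed as up, 4 were lower in *O. rufipogon* on both scales, as were 39 of all 57 pairs listed as up. OS11G0484000, annotated as the dehydratase and enolase-phosphatase of the cycle, had the highest level of the group, with 4608 and 4996 CPM in *O. sativa* and 1764 and 1492 CPM in *O. rufipogon*. It was 2.95-fold lower in CPM (−1.56 ± 0.18, adjusted p = 2.6e-06) and 2.29-fold lower per length. OS06G0112200, the nucleosidase of the first step, stood at 505 and 560 CPM against 166 and 150 CPM, a difference that grew from 3.38-fold in CPM to 4.72-fold per length (−2.24 ± 0.10, adjusted p = 5.3e-10). *MTK1*, methylthioribose kinase, was 2.23-fold lower in CPM (−1.16 ± 0.12, adjusted p = 1.6e-06) and 1.76-fold lower per length. The annotated aminotransferase OS09G0453800, counted with the group, was 2.74-fold lower in CPM and 2.79-fold lower per length. None of these 4 pairs lost its call on either scale under any alternative that included it.

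*ARD2*, acireductone dioxygenase, differed from the other members. Its CPM values were 1025 and 1107 in *O. sativa* and 1025 and 1008 in *O. rufipogon*, with no difference called (−0.07 ± 0.13, adjusted p = 0.62). Per length it was 2.68-fold lower in *O. rufipogon* (−1.42 ± 0.12, adjusted p = 9.4e-08), since the effective length was 723 nt in *O. sativa* and 1994 nt in *O. rufipogon*. Its CPM difference turned to 0.29 with normalization factors taken over the pairs and to 0.73 with the most abundant transcript only, so no direction is given for it.

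The transporters of Fe and its chelates lay mostly in 1 direction. Of the 8 pairs, 7 were lower in *O. rufipogon* on both scales, with none higher. The *O. sativa* libraries lay above those of *O. rufipogon* without overlap in all 8. Of all 57 pairs listed as up, 39 were lower on both scales. Without overlap, 51 of the 57 were lower in CPM and 47 per length. Read sharing touched 7 of the 8, *ENA1* being the exception. The group median was −1.28 in CPM and −1.02 per length. *NRAMP1*, a transporter of divalent metals, showed the largest gap, with 656 and 662 CPM in *O. sativa* and 170 and 154 CPM in *O. rufipogon*. This was a 4.07-fold lower level on either scale (−2.02 ± 0.10 in CPM, adjusted p = 1.2e-09).

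*IRT1*, the main Fe(II) uptake transporter, stood at 286 and 310 CPM in *O. sativa* and at 109 and 90.7 CPM in *O. rufipogon*, 2.98-fold lower in CPM (−1.57 ± 0.11, adjusted p = 3.4e-08) and 2.19-fold lower per length. *IRT2*, its neighbour in the IRT family, was far less abundant in both species, at 8.97 and 11.9 CPM against 6.54 and 4.59 CPM. Its difference of −0.91 ± 0.26 (adjusted p = 0.0059) in CPM was no longer called relative to the median pair (−0.57, adjusted p = 0.063). Its call per length (−0.79 ± 0.26, adjusted p = 0.013) was lost under 5 alternatives, among them leaving out the first (−0.98, adjusted p = 0.056) or the second (−0.58, adjusted p = 0.17) *O. sativa* −Fe library. *IRT1* was thus at a mean of 258 TPM in *O. sativa* and 118 TPM in *O. rufipogon*, and *IRT2* at 11.5 and 6.65 TPM.

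Carriers of chelated Fe followed the same direction with unequal size. *YSL15*, which imports Fe(III)-deoxymugineic acid from the soil solution, was at 1052 and 1075 CPM in *O. sativa* and 668 and 799 CPM in *O. rufipogon*. Its difference was the smallest of the called transporters in CPM (−0.54 ± 0.13, adjusted p = 0.0017). This call was lost relative to the median pair (−0.19, adjusted p = 0.18). The difference vanished when only the most abundant transcript of each gene was compared (0.015, adjusted p = 0.92). Its call per length (−0.50 ± 0.12, adjusted p = 0.0022) was lost relative to the median pair too (−0.22, adjusted p = 0.13). That call was also lost without the first (−0.51) or the second (−0.49) *O. sativa* −Fe library. *YSL9*, of the same family, was at 204 and 207 CPM against 81.8 and 78.5 CPM (−1.36 ± 0.09, adjusted p = 2.7e-08). *ENA1*, which exports nicotianamine, was at 272 and 275 CPM against 78.0 and 81.6 CPM, 3.43-fold lower in CPM and 2.42-fold lower per length. *OPT7*, an oligopeptide transporter, was 2.30-fold lower in CPM (−1.20 ± 0.13, adjusted p = 2.1e-06). Its call per length (−1.07 ± 0.13, adjusted p = 5.9e-06) was lost with the most abundant transcript only (−0.19, adjusted p = 0.21).

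*VIT2*, a vacuolar Fe transporter, was the one member of this group listed as down. It stood at 12.1 and 12.9 CPM in *O. sativa* and at 9.74 and 11.9 CPM in *O. rufipogon*. The gap was not called in CPM (−0.20 ± 0.20, adjusted p = 0.36) and passed the threshold per length (−0.49 ± 0.21, adjusted p = 0.039), a call lost relative to the median pair (−0.21, adjusted p = 0.37).

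The regulators of the Fe response were lower in *O. rufipogon* in CPM in all 4 pairs, and in 3 of 4 per length. Over all pairs listed as up it was 47 of 57 in CPM and 42 of 57 per length. The regulator pairs encode both activating and restraining proteins. *HRZ1*, a ubiquitin ligase that restrains the response, was at 267 and 260 CPM in *O. sativa* and 107 and 106 CPM in *O. rufipogon* (−1.31 ± 0.10, adjusted p = 3.9e-08). *HRZ2*, of the same kind, was at 143 and 133 CPM against 83.2 and 72.8 CPM (−0.82 ± 0.10, adjusted p = 7.3e-06). *IRO3*, a helix-loop-helix protein known as a negative regulator, stood at 204 and 201 CPM against 106 and 93.3 CPM, 2.03-fold lower in CPM and 3.84-fold lower per length.

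*IRO2*, the activator of phytosiderophore genes, depended on the scale. It was at 657 and 676 CPM in *O. sativa* and at 214 and 203 CPM in *O. rufipogon*, 3.19-fold lower (−1.67 ± 0.10, adjusted p = 5.3e-09). Its annotated effective length is 2347 nt in *O. sativa* and 719 nt in *O. rufipogon*, and per length the libraries stood at 335 and 341 TPM against 380 and 368 TPM. No difference was called on that scale (0.14 ± 0.09, adjusted p = 0.16), although it was called higher there relative to the median pair (0.43, adjusted p = 0.00086). Reads are divided with another gene in at least 1 partner of each of the 4 regulator pairs.

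The 5 pairs for other metals were all lower in *O. rufipogon* in CPM without overlap, as were 56 of all 102 pairs. Per length without overlap, 4 were lower and 1 higher, against 56 and 41 of all pairs. *COPT5.1*, a copper transporter, was at 38.9 and 48.3 CPM in *O. sativa* and 15.8 and 10.9 CPM in *O. rufipogon* (−1.71 ± 0.18, adjusted p = 1.3e-06), and 1.63-fold lower per length. *ZIP4*, a zinc transporter, was 1.52-fold lower in CPM (−0.60 ± 0.11, adjusted p = 0.00025), a call lost in DESeq2 with its own size factors (−0.25, adjusted p = 0.094). *NRAMP7*, listed as down, was at 31.3 and 31.0 CPM against 16.8 and 18.3 CPM, and its difference of −0.83 ± 0.14 in CPM was −0.42 per length (adjusted p = 0.013). These were the 3 of 5 pairs called in the same direction on both scales, against 72 of all 102 pairs. Per length, the calls of *ZIP4* (−0.23, adjusted p = 0.081) and *NRAMP7* (−0.13, adjusted p = 0.40) were lost relative to the median pair. Those of *COPT5.1* (−0.84 and −0.55) and *NRAMP7* (−0.40 and −0.43) were lost without the first or the second *O. sativa* −Fe library. That of *ZIP4* was lost without the second (−0.40), and that of *NRAMP7* without the first *O. rufipogon* −Fe library (−0.34).

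The metallothioneins, small cysteine-rich metal-binding proteins, gave no common direction per length. *MT4A* stood at 2131 and 2407 CPM against 2051 and 1691 CPM, not called in CPM (−0.28 ± 0.16, adjusted p = 0.13) and lower per length (−0.47 ± 0.15, adjusted p = 0.0098). OS12G0568500 was lower in CPM (2637 and 2567 against 1846 and 2069, −0.41 ± 0.16, adjusted p = 0.026) and higher per length (0.71 ± 0.15, adjusted p = 0.00049), as its effective length is 475 nt in *O. sativa* and 236 nt in *O. rufipogon*. Relative to the median pair, the call of *MT4A* per length (−0.19, adjusted p = 0.26) and that of OS12G0568500 in CPM (−0.07, adjusted p = 0.69) were lost. The latter was also lost with normalization factors taken over the pairs (−0.06, adjusted p = 0.70), among other alternatives. Per length, the calls of *MT4A* (−0.55 and −0.39) and OS12G0568500 (0.74 and 0.68) were lost without the first or the second *O. sativa* −Fe library. Both share reads with other genes in both species.

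**Figure D2:**
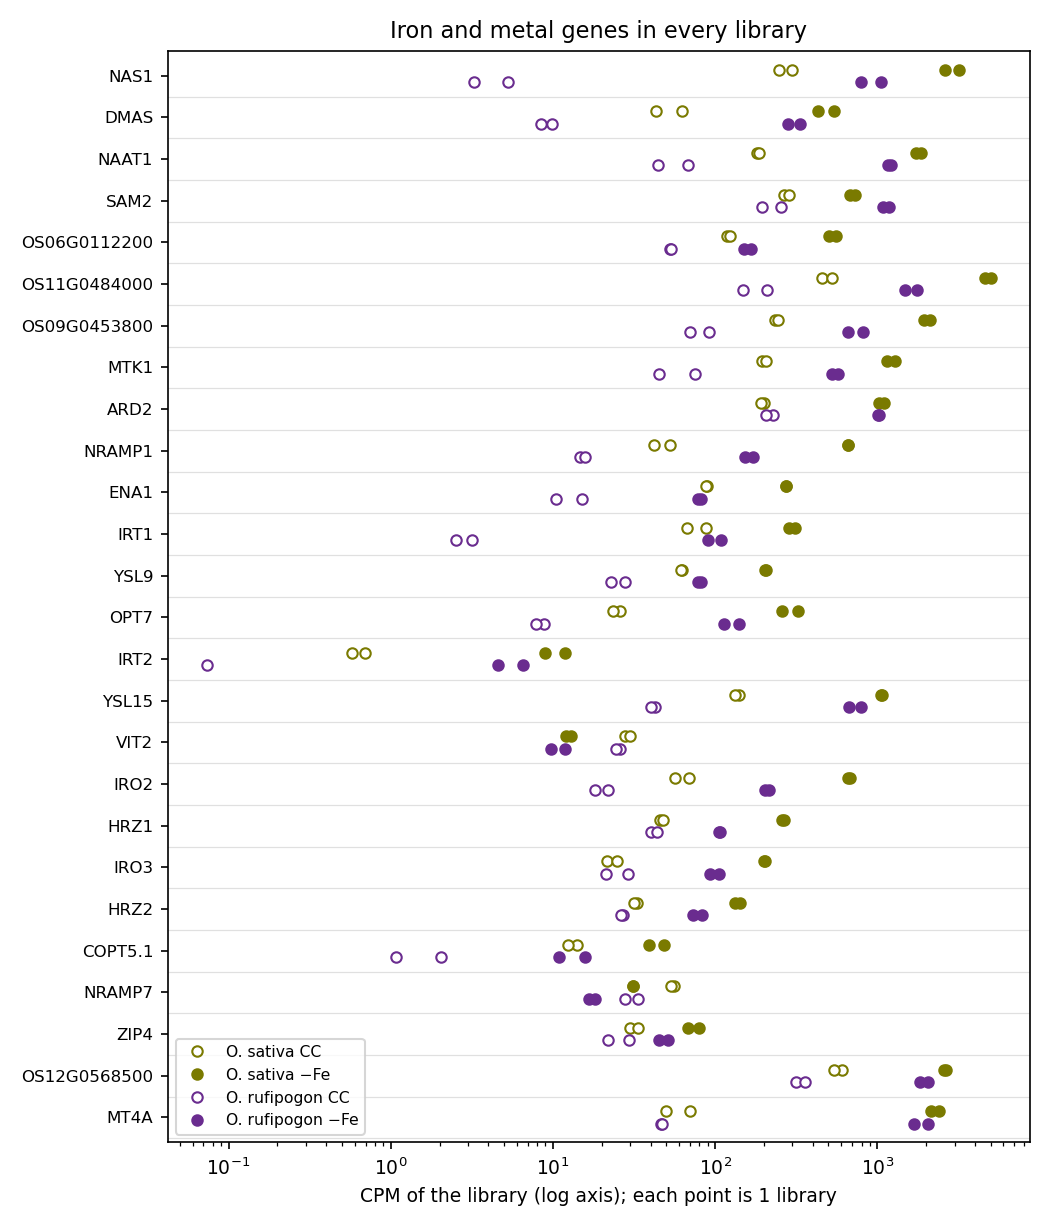
CPM (log axis) of the 26 pairs for Fe and other metals in every library, with filled points for −Fe, open points for CC, and a row for each pair. Under −Fe the *O. sativa* points lie right of the *O. rufipogon* points in most rows, *SAM2* is the exception among the synthesis genes, and 1 *O. rufipogon* CC library of *IRT2* is at 0 and cannot be drawn.

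Of the 24 pairs of these 5 groups that were listed as up, 18 were lower and 1 higher in *O. rufipogon* on both scales. Their median was −1.18 in CPM and −0.94 per length. Of all 57 pairs listed as up, 39 were lower and 3 higher. Another 3 pairs listed as up belong to formate and purine recycling, which handles by-products of the salvage cycle. Formate dehydrogenase OS06G0486800 was at 1740 and 2030 CPM in *O. sativa* and 1111 and 830 CPM in *O. rufipogon* (−0.96 ± 0.17, adjusted p = 0.00012). The adenine phosphoribosyltransferase OS12G0589100 was at 2642 and 2969 CPM against 1020 and 884 CPM, 2.95-fold lower in CPM and lower by less per length (−0.59 ± 0.14, adjusted p = 0.0014). Ribose-phosphate pyrophosphokinase OS02G0714600, at 970 and 1086 CPM against 1115 and 916 CPM, overlapped between the species and was called on neither scale.

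The phosphate and membrane lipid genes, all listed as down, lay the other way. Of 13 pairs, 11 were higher in *O. rufipogon* in CPM, 12 per length and 10 on both scales, and none was lower on either. Of all 45 pairs listed as down, 33 were higher in CPM, 33 per length and 27 on both scales. The group median was 1.58 in CPM and 1.24 per length. *SPX1* was at 27.1 and 29.7 CPM in *O. sativa* and at 94.7 and 80.2 CPM in *O. rufipogon*, 3.08-fold higher in CPM (1.62 ± 0.11, adjusted p = 2.7e-08) and 4.82-fold higher per length. *SPX2* was at 6.72 and 7.35 CPM against 44.3 and 45.1 CPM, 6.35-fold higher in CPM (2.67 ± 0.13, adjusted p = 1.2e-09) and 2.76-fold higher per length. The *SPX2* partners are annotated on chromosomes 2 and 3, so their orthology is less certain than that of pairs on the same chromosome.

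The 4 purple acid phosphatases were all higher in *O. rufipogon* on both scales. OS01G0941800, annotated as probably inactive, had the largest difference in favour of *O. rufipogon* of all pairs on either scale, with 1.41 and 1.66 CPM in *O. sativa* against 21.8 and 16.1 CPM in *O. rufipogon* (3.62 ± 0.27, adjusted p = 4.3e-08). *OsPAP3b* was at 4.39 and 4.11 CPM against 26.6 and 21.0 CPM, 5.59-fold higher in CPM and 5.82-fold higher per length. The most abundant of the 4, OS03G0238600, was at 188 and 186 CPM against 570 and 545 CPM, 2.98-fold higher in CPM. OS01G0776600 was 1.40-fold higher, and its call was lost without the second *O. sativa* −Fe library (0.44, adjusted p = 0.061).

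Genes that handle lipids and phosphate esters mostly followed. The glycosyl transferase OS01G0142300 was at 21.6 and 23.7 CPM in *O. sativa* and 176 and 137 CPM in *O. rufipogon*, 6.93-fold higher in CPM (2.79 ± 0.13, adjusted p = 7.6e-10). The glycerophosphodiester phosphodiesterase OS02G0514500 was at 65.0 and 67.0 CPM against 316 and 263 CPM, 4.39-fold higher in CPM and 2.77-fold higher per length. *MGD3*, a galactolipid synthase, was 2.30-fold higher in CPM (1.20 ± 0.10, adjusted p = 1.5e-07). A glycerol-3-phosphate dehydrogenase, OS01G0801600, was 1.43-fold higher in CPM and 2.10-fold higher per length.

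Called on 1 scale only were OS03G0214400, *IPP* and OS04G0652700. The digalactolipid synthase OS03G0214400 was at 34.2 and 30.9 CPM against 33.2 and 31.8 CPM (−0.00 ± 0.12, adjusted p = 0.98) and called higher per length (0.41 ± 0.12, adjusted p = 0.0062). Its call per length was lost with the most abundant transcript (0.27, adjusted p = 0.060) and without the second *O. sativa* −Fe library (0.33, adjusted p = 0.083), while its CPM difference was 0.34 and called relative to the median pair. *IPP*, a pyrophosphatase, was at −0.18 ± 0.11 in CPM (adjusted p = 0.15) and 0.68 ± 0.11 per length (adjusted p = 9.5e-05), a call lost without the second *O. sativa* −Fe library (0.59, adjusted p = 0.055). The nuclease PA3 gene OS04G0652700 was higher in CPM (0.58 ± 0.09, adjusted p = 6.1e-05) and not called per length (−0.15 ± 0.09, adjusted p = 0.13), where its most abundant transcript alone gave 1.44.

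**Figure D3:**
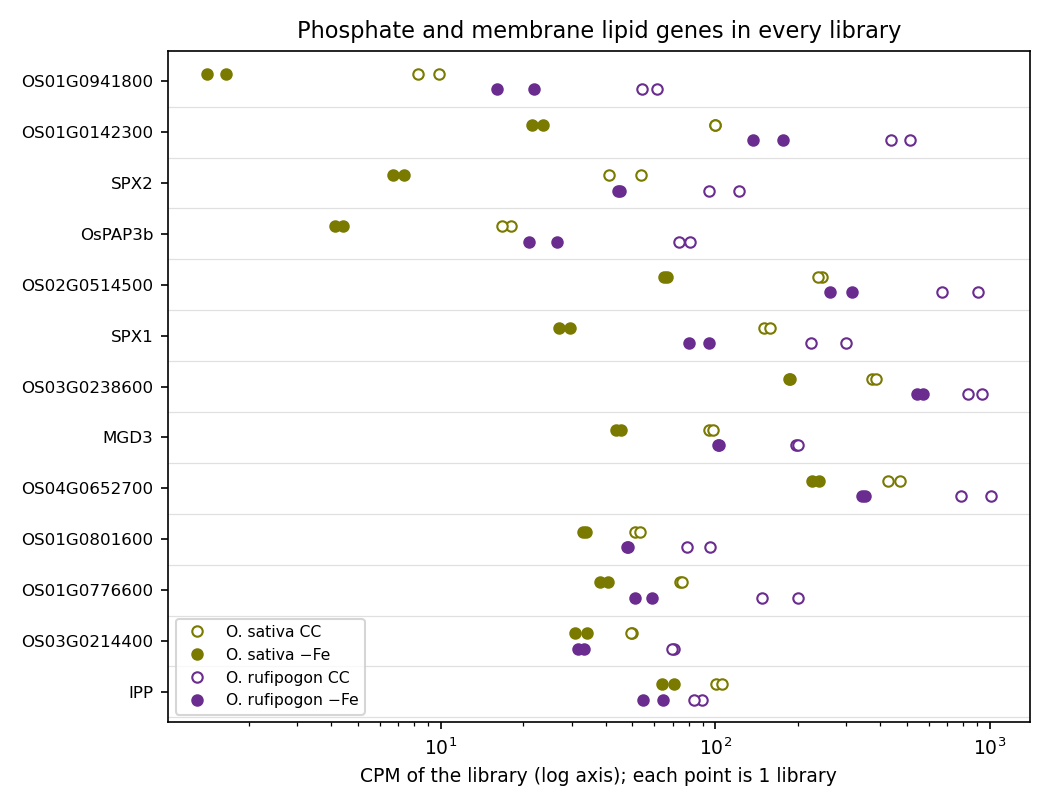
CPM (log axis) of the 13 pairs for phosphate and membrane lipids in every library, with filled points for −Fe and open points for CC. The *O. rufipogon* −Fe points lie right of the *O. sativa* −Fe points without overlap in 11 rows, and the widest gap is that of OS01G0941800.

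Beyond these groups, the largest differences belonged mostly to genes the study's list does not name. Among pairs listed as up, OS03G0736900 was at 46.7 and 51.1 CPM in *O. sativa* and at 3.27 and 2.33 CPM in *O. rufipogon*, 17.5-fold lower in CPM (−4.13 ± 0.19, adjusted p = 6.4e-10) and 15.7-fold lower per length. OS10G0195250 was at 290 and 307 CPM against 20.7 and 16.4 CPM, 16.2-fold lower in CPM and 10.3-fold lower per length. Its partner is annotated on chromosome 12, so the pair may not be a pair of orthologs in the same position, and reads are shared in both species. OS02G0731900, a 3-ketoacyl-CoA synthase of fatty acid elongation, was at 26.0 and 28.5 CPM against 4.19 and 2.52 CPM, 8.13-fold lower in CPM (−3.02 ± 0.24, adjusted p = 1e-07).

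For OS01G0608101 and OS01G0495701 the size of the gap depended on the gene model. OS01G0608101 was at 332 and 297 CPM against 17.2 and 13.7 CPM, 20.4-fold lower in CPM and 3.73-fold lower per length, with effective lengths of 1807 and 356 nt. OS01G0495701 was 17.6-fold lower in CPM and 2.51-fold lower per length, with 1500 and 230 nt. Reads are shared with other genes in both species for OS01G0608101 and OS01G0495701. The partner of OS01G0495701 has an identifier far out of the order of the other listed pairs on chromosome 1. Its orthology is therefore less certain. The remaining pairs of this rank were OS01G0952900, at 8.38 and 8.65 CPM against 1.63 and 1.64 CPM, and OS02G0579800, at 102 and 128 CPM against 31.7 and 25.0 CPM.

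A pair listed as down, OS09G0356000, went against most of its list. This senescence-induced receptor-like kinase gene was at 8.46 and 8.69 CPM in *O. sativa* and at 0.292 and 0.848 CPM in *O. rufipogon*, a mean of 10.5 counts (−3.87 ± 0.43, adjusted p = 2.1e-06). *NRAMP7* and OS08G0536000 (−0.24 ± 0.10 in CPM, adjusted p = 0.042) were the other 2 pairs listed as down that were lower on both scales.

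Among pairs higher in *O. rufipogon*, the major facilitator transporter OS08G0156600 was at 50.4 and 59.8 CPM in *O. sativa* and 374 and 357 CPM in *O. rufipogon*, 6.64-fold higher in CPM (2.73 ± 0.11, adjusted p = 1.5e-10) and 5.47-fold higher per length. The nucleoside-triphosphatase OS11G0126800 was at 21.5 and 21.5 CPM against 139 and 148 CPM, 6.66-fold higher in CPM and 4.12-fold higher per length. *4CL1*, a 4-coumarate-CoA ligase of phenylpropanoid metabolism, was at 40.5 and 42.2 CPM against 124 and 134 CPM (1.64 ± 0.10, adjusted p = 9e-09). The protein kinase gene OS09G0569800 was far less abundant, at 3.52 and 2.97 CPM against 10.2 and 10.1 CPM, and its call per length was lost without the second *O. sativa* −Fe library (0.69, adjusted p = 0.074).

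The pairs listed as up that were higher in *O. rufipogon* on both scales were *SAM2*, *R40C1* and OS09G0129600. OS09G0129600 was at 23.6 and 24.5 CPM in *O. sativa* against 84.0 and 73.8 CPM in *O. rufipogon* (1.71 ± 0.11, adjusted p = 9e-09). *R40C1* was at 419 and 447 CPM against 666 and 506 CPM (0.44 ± 0.13, adjusted p = 0.0075), and its CPM call was lost without the first *O. sativa* −Fe library (0.39, adjusted p = 0.11). Outside the groups for metals, recycling, phosphate and lipids, 30 pairs were listed as up, *R40C1* and OS09G0129600 among them, and 19 of these were lower and 2 higher on both scales. Of the 30 such pairs listed as down, 17 were higher and 2 lower. The 4 pairs called on neither scale were *CKX5*, *CYP714D1*, OS02G0714600 and OS04G0480900.

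Comparing pairs with each other showed how far annotated length moved the values. Across the 102 pairs the log2 CPM ratio went with the log2 length ratio (Pearson r = 0.477), while the TPM ratio did not (r = 0.0033). Within each list, however, the TPM ratio went weakly against length. Among pairs listed as up r was 0.501 in CPM and −0.177 per length, and among those listed as down 0.347 and −0.224. All of these are descriptions over pairs that share libraries. Among pairs listed as up the *O. rufipogon* gene had a median length of 0.870 times that of its partner, and among those listed as down 1.18 times, the directions of the CPM differences. In the 41 pairs whose lengths were within 1.25-fold, a choice made after seeing the data, 21 of 27 pairs listed as up were lower on both scales and none higher, and 8 of 14 listed as down were higher and 3 lower. Their medians were −0.91 in CPM and −0.79 per length for pairs listed as up, and 0.43 and 0.49 for those listed as down. In the 46 pairs without shared reads, 17 of 23 listed as up were lower and 1 higher, and 13 of 23 listed as down were higher and 2 lower. Here the medians were −0.96 in CPM and −0.70 per length for pairs listed as up, and 1.04 and 0.50 for those listed as down.

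The CPM and length-corrected calls went in opposite directions in 3 pairs, OS12G0568500, *GAP1* and OS06G0554800. *GAP1* was at 82.0 and 79.0 CPM in *O. sativa* against 116 and 114 CPM in *O. rufipogon*, and at 105 and 99.8 TPM against 82.9 and 82.9 TPM. The ABC-2 type transporter OS06G0554800 was 1.71-fold higher in CPM and 1.46-fold lower per length. For these pairs the species order is not settled by the files.

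**Figure D4:**
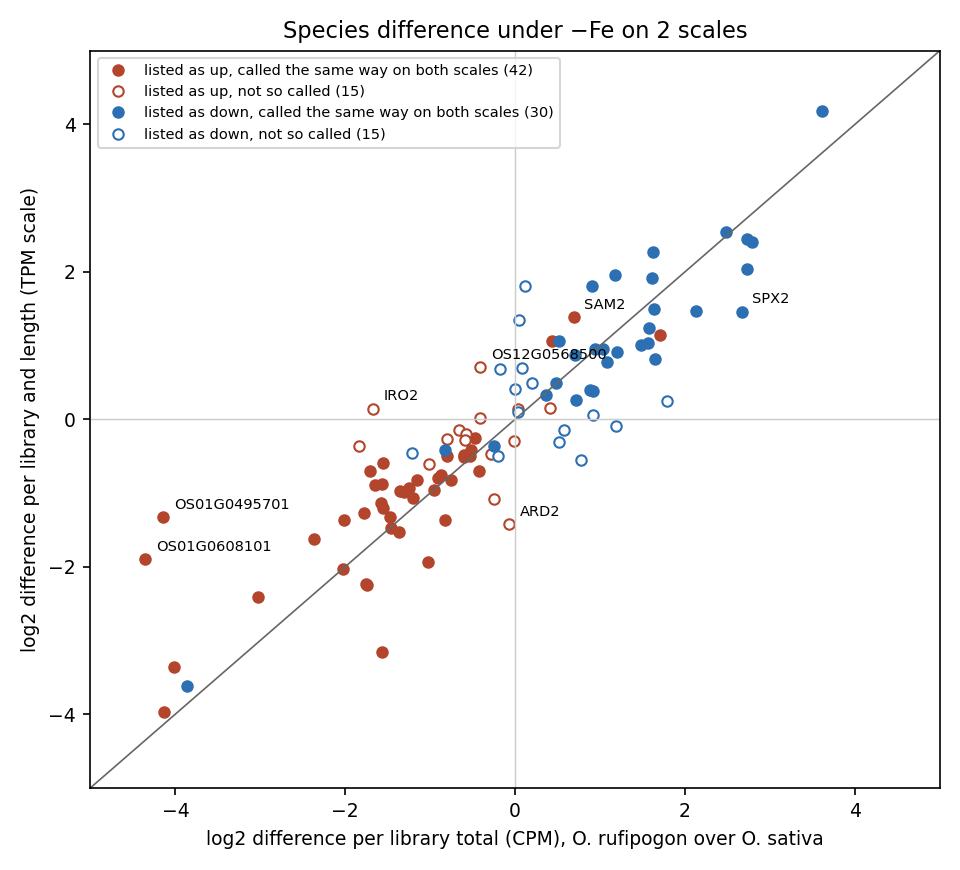
Log2 difference under −Fe between *O. rufipogon* and *O. sativa* for 102 pairs, in CPM (horizontal axis) and per effective length (vertical axis), with a line of equal values and filled points for pairs called in the same direction on both scales. Most points have the same sign on both axes, and *IRO2*, *ARD2*, OS01G0608101 and OS01G0495701 lie far from the line.

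The CC libraries show the levels from which these were reached. They share no library with the −Fe comparison, but with it they made up the contrast by which the pairs were listed, so the values are description only. Under CC the median log2 ratio of mean CPM was −1.19 for pairs listed as up and 0.85 for those listed as down, and the CC and −Fe ratios went together across pairs (Spearman rho = 0.874, n = 102). *NAS1* was at 248 and 298 CPM in *O. sativa* CC and at 5.29 and 3.25 CPM in *O. rufipogon* CC, a log2 ratio of −6.00 against −1.65 under −Fe. *IRT1* was at 87.4 and 67.5 CPM against 2.54 and 3.18 CPM, a log2 ratio of −4.76 against −1.57. In ratio, the species thus lay closer together in both genes without Fe than with it, although their distance in CPM was wider without Fe. The ratios under CC rest on means of 67 (*NAS1*) and 46 (*IRT1*) counts in *O. rufipogon*.

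Among the regulators, the log2 gap in CPM was wider under −Fe than under CC for *HRZ1*, *HRZ2* and *IRO3*, and about the same for *IRO2* (−1.65 and −1.67). *HRZ1* stood at 45.6 and 47.6 CPM in *O. sativa* CC and 40.1 and 43.8 CPM in *O. rufipogon* CC, a log2 ratio of −0.15 against −1.31 under −Fe. In TPM it was higher in *O. rufipogon* under CC, at 15.7 and 17.1 against 12.9 and 13.5. *IRO3* overlapped under CC, at 21.6 and 24.7 CPM against 21.1 and 29.1 CPM, and the log2 ratio went from 0.12 to −1.02. Of all pairs, 51 had a smaller and the others a larger log2 gap in CPM under −Fe than under CC. Whether the gap differed between conditions was not tested, as the pairs were chosen on the response.

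The responses themselves spanned a wide range in both species. In log2 of mean CPM, −Fe over CC, the pairs listed as up had a median of 2.45 (*O. sativa*) against 2.64 (*O. rufipogon*), and those listed as down −0.93 against −0.89. The largest in *O. sativa* was that of *MT4A* (5.24, against 5.32 in *O. rufipogon*), and *NAS1* had 3.41 in *O. sativa* and 7.75 in *O. rufipogon*. At the lower end, OS06G0114000 had 0.20 and 0.44, and OS06G0702700 had 0.62 and −0.05, although it is listed as up. Pairs just outside the list were not analysed here.

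**Figure D5:**
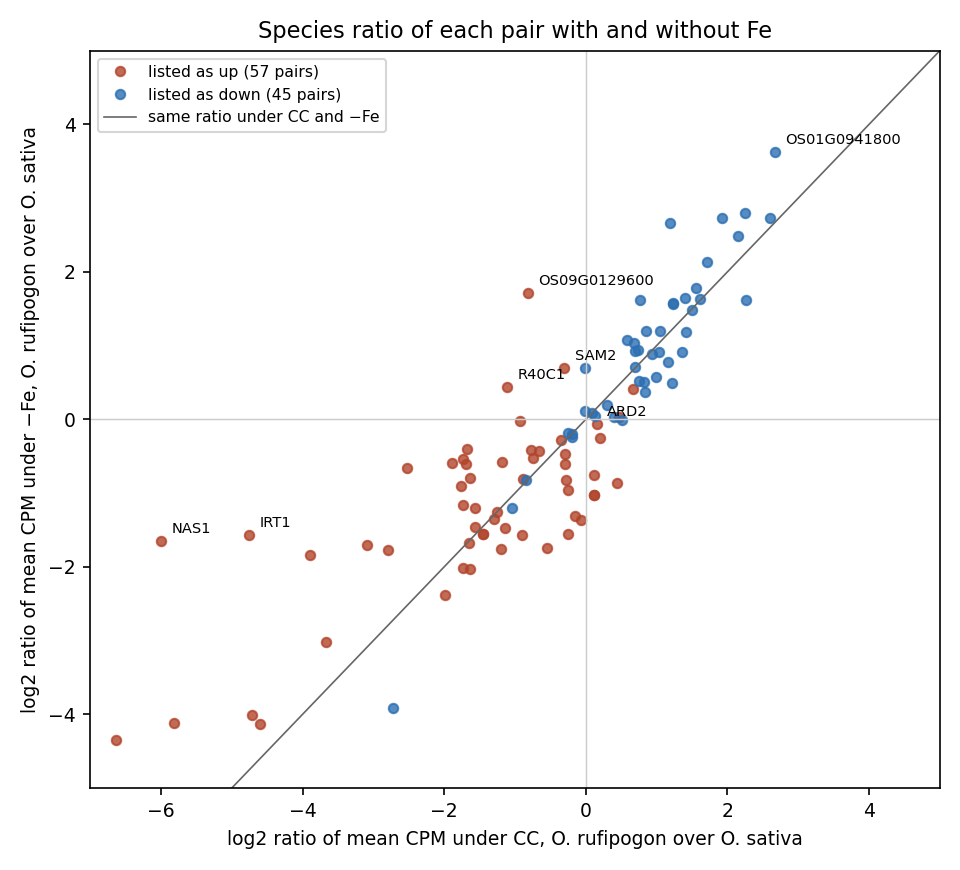
Log2 ratio of mean CPM between *O. rufipogon* and *O. sativa* for 102 pairs under CC (horizontal axis) and −Fe (vertical axis), coloured by the listed response, with a line of equal ratios. *NAS1* and *IRT1* lie far above the line with ratios nearer to 0 under −Fe, *SAM2*, *R40C1* and OS09G0129600 lie left of 0 under CC and above 0 under −Fe, and for 5 pairs the CC level of a species was below 3 counts.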

How the data were processed

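Estimated counts and TPM of each transcript were deposited by the authors, who removed reads with a low PHRED value, trimmed them with Trim Galore and quantified them with Kallisto on the transcripts of each species. The version is not given in the sources used here, and the submitters' processing notes name the build IRGSP-1.0 for both species. Estimated counts were summed over the transcripts of a gene, divided by the library total (CPM) and, rounded, tested with edgeR 4.0.16 (R 4.3.3; robust quasi-likelihood fit, library totals as library sizes) on pairs reaching 5 counts in at least 2 of the 4 −Fe libraries, as all did. The TPM-scale fit added an offset for effective length, from the deposited estimated counts and effective lengths. The SE is the log2 difference over the square root of the F statistic. A gene was taken to share reads where a sum differed from a whole number by over 0.01 or the rounding of the deposited values. Libraries were grouped by their labels. The pairs, gene groups and lists were chosen with earlier results of these data known. The text names every pair of the Fe, metal and phosphate and lipid groups, the 10 largest differences in each direction among pairs called on both scales with a mean of at least 50 counts, and pairs whose species order turned between CC and −Fe, with a few more for counts of 5 or fewer, chosen after their values were seen. Levels use the total of all estimated counts, 17145733 to 25312301 per −Fe library. Whether p values cover more than the spread between pooled libraries cannot be told, as nothing says the pools were grown apart. Alternatives were TMM within species and over the pairs, scaling to the median pair, DESeq2 1.42.0, limma 3.58.1 on log2(TPM + 1) and log2(TPM + 0.1), other count filters, all 8 libraries, the replicate block, the most abundant transcript, subsets of pairs and leaving out each library. No genome of the files' build was used, so no sequences or positions are given.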

Additional observations from a re-analysis of the deposited data

Results flagged for a closer look

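In CPM, 5 pairs stood in opposite species order under CC and −Fe, with no overlap of the libraries in either condition. The reversal itself was not tested, and per length it was seen only in *R40C1* and OS09G0129600 of the 5. *SAM2* was at 266 and 286 CPM in *O. sativa* CC and 254 and 193 CPM in *O. rufipogon* CC, and its log2 CPM difference under −Fe was 0.69 in favour of *O. rufipogon*. In TPM it was higher in *O. rufipogon* under CC too, at 310 and 236 TPM against 182 and 196 TPM. OS09G0129600, without a name in the study's list, was at 11.4 and 10.2 CPM against 4.61 and 7.65 CPM under CC and had a difference of 1.71 under −Fe. *R40C1* was at 294 and 276 CPM against 136 and 127 CPM under CC and had a difference of 0.44 under −Fe. *ARD2* was at 199 and 191 CPM in *O. sativa* CC against 227 and 206 CPM in *O. rufipogon* CC. Its difference of −0.07 under −Fe was not called, the nearest libraries of the species were both at 1025 CPM, and the sign turned with other scalings, so no order under −Fe is read from it. The nucleobase-ascorbate transporter gene OS08G0369000 was at 14.7 and 15.1 CPM against 18.4 and 15.9 CPM under CC and had a difference of −0.25 under −Fe, also not called. Per length both pairs were lower in *O. rufipogon* in either condition.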

How the results depend on the processing

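Of 1906 values of named pairs under the alternatives, 1818 kept direction and side of the threshold, 67 lost a call, 12 gained one and 9 turned direction. Those that turned were *YSL15* with the most abundant transcript (0.015 in CPM, 0.013 per length), *ARD2* in CPM (0.29 with TMM over the pairs, 0.28 with DESeq2 size factors, 0.73 with the most abundant transcript), OS03G0214400 in CPM (0.35 with TMM over the pairs, 0.34 relative to the median pair, 0.34 with DESeq2 size factors) and OS04G0652700 per length (1.44 with the most abundant transcript); the cause was not tested. Subsets held fewer pairs and gave fewer calls. Without shared reads (46 pairs) 19 were higher and 21 lower in CPM, 17 and 21 per length, and 14 and 18 on both scales. With like length (41 pairs, chosen after seeing the data) these counts were 8 and 26, 10 and 24, and 8 and 22. The like-length calls thus leaned more to lower than the 37 higher and 51 lower of all 102 pairs in CPM. Of these 41 pairs, 27 were listed as up. Leaving out each library in turn gave 34 to 39 higher and 46 to 51 lower in CPM, 26 to 38 higher and 29 to 48 lower per length, and 24 to 33 higher and 27 to 42 lower on both scales, where the lone library is assumed to vary like the other species' pair. The median for pairs listed as up then ranged from −1.23 to −0.94 and that for pairs listed as down from 0.84 to 0.97, against 0.81 from TPM. The median of all pairs, −0.34, is the shift that scaling to the median pair removes. With it, 43 were higher and 39 lower in CPM and 41 and 34 per length, and with TMM over the pairs 44 and 41, and 42 and 36. The replicate block gave 37 higher and 49 lower in CPM and 35 and 44 per length. Deviations of same-numbered libraries correlated at −0.22, so a crossed pairing was added after seeing the data (38 higher and 54 lower in CPM). Nothing says that a number marks a shared pool or day.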
